A study of Homo sapiens with 30 samples.

Results

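The genes of the proteasome, the protease that degrades ubiquitin-tagged proteins, were followed as RNA through the nucleus, the cytosol and the nuclear lamina of a human cell line. They were taken as every gene whose symbol is PSMA, PSMB, PSMC, PSMD, PSME, PSMF or PSMG followed by a number, which gave 48 of the 27630 genes in the deposited tables. By symbol, 19 belonged to the core particle (PSMA, PSMB), 20 to the regulatory particle and its assembly factors (PSMC, PSMD), 5 were activators or an inhibitor (PSME, PSMF) and 4 were chaperones of core assembly (PSMG). A filter on low counts left 45 for testing. PSMA8, the testis form of an alpha subunit, had no count in any library, and PSMB8 and PSMB11 had at most 6 and 4 counts in any one.

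RNA was sequenced from 8 libraries of HEK293FT, a line derived from human embryonic kidney cells, in 4 groups of 2. They cover the nucleus and the cytosol as fractions, and the lamina as a native and as a paraformaldehyde-fixed (PFA) preparation. Every group, fractions included, came from asynchronous cells that carried a transfected fusion of the peroxidase APEX2 with lamin B1, delivered by lipofection, per the labels. APEX2 labels molecules near itself, and lamin B1 is a filament protein of the lamina beneath the inner nuclear membrane. The labels list no library from untransfected or unlabelled cells, so the fractions served as the background, and they do not say what promoter drives the fusion, whether cells were selected, or whether the 2 libraries of a group came from separate cultures.

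The proteasome core is a barrel of stacked rings, with alpha subunits forming the outer rings and beta subunits, some of them proteolytic, the inner ones. The regulatory particle caps the barrel: its base unfolds substrates with a ring of ATPases, and its lid removes the ubiquitin chain. The transcription factor NFE2L1 is known to raise the genes together through antioxidant response elements in their promoters when proteasome activity falls.

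Promoter stretches of 5 genes are shown because proteasome genes are known to share that control element, and were chosen with the genes' values in view. Promoter windows of 250 bases before to 50 bases after the start (RefSeq, GRCh38.p14) were available for 42 of the 48 genes. The core of the antioxidant response element, TGACNNNGC on either strand, was present in 15 of these 42 windows (35.7%), against 16.1% of 27305 genes. The stretches below run 5′ to 3′ on the gene's strand, with the matching bases in capitals, for 2 core genes, 2 lid genes and 1 assembly chaperone. The match ended 117 bases before the start in PSMA4, 95 in PSMB3, 28 in PSMD3, 156 in PSMD12 and 125 in PSMD5.
PSMA4, chr15:78540634-78540694, plus strand: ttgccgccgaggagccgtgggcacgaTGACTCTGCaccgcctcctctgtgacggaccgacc
PSMB3, chr17:38752611-38752671, plus strand: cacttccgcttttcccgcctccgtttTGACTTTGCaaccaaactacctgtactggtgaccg
PSMD3, chr17:39980744-39980804, plus strand: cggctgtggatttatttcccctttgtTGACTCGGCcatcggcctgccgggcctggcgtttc
PSMD12, chr17:67366708-67366768, minus strand: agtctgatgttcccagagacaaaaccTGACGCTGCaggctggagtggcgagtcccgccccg
PSMD5, chr9:120843022-120843082, minus strand: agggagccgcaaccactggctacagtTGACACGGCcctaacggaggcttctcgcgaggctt

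The CCAAT box was present in 20 of the 42 windows (47.6%, against 39.7% of all genes) and TATAAA in 5 (11.9%, against 13.99%), both strands searched and no overlap between the 3 motifs removed. The median log2 fold change, nuclear over cytosolic, was -0.94 over the 15 genes with TGACNNNGC and -1.41 over the 24 tested genes without it, a difference not tested. The printed genes, chosen with their values in view, did not behave alike between the fractions. PSMA4, PSMB3 and PSMD3 were lower in the nucleus, PSMD12 was not called and PSMD5 was higher there, as given with their values below. A match describes the letters of a window and is not evidence of binding.

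Total counts ran from 2321291 to 8557777 per library, and a count of 3, taken as the floor, equalled a CPM (counts scaled to a common library total) of 0.351 to 1.29. The transfected gene LMNB1 took 0.304% to 0.520% of the counts of the fraction libraries, 8.89% and 9.49% at the PFA lamina, and 8.60% and 2.96% at the native lamina. Reads cannot separate the endogenous LMNB1 transcript from the construct. Summed nuclear RNAs (MALAT1, NEAT1, KCNQ1OT1 and MEG3) reached 13761 to 22811 normalised CPM in the nuclear libraries and 970.0 to 1297 in the cytosolic ones. They spanned 6343 to 13569 at the native lamina and 712 to 4106 at the PFA lamina, where the replicates lay furthest apart in ratio. The HEK293FT list (VIM, PAX2, NEFM, INA) summed to 318 to 322 normalised CPM in the nuclear, 1409.7 to 1501 in the cytosolic, 553 to 635 in the native lamina and 485 to 597 in the PFA lamina libraries. HBG1 and HBG2, markers of the K562 line, were at 0 in every library. Of 3 leukocyte markers PTPRC and CD3E were at 0, with sums of 1.11 to 8.76, and of 3 fibroblast markers COL1A2 was at 0, with sums of 10.5 to 36.8. The 4 markers of the HCT116 line summed to 20.9 to 48.8. P-values measure only the spread between the 2 libraries of each group, which may be technical.

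The 48 genes together took 0.157% and 0.150% of the counts of the nuclear libraries, and 0.457% and 0.320% of the cytosolic ones. At the lamina they took 0.320% and 0.227% in the native libraries and 0.347% and 0.269% in the PFA libraries. Both nuclear libraries lay below every other library. The widest of the 95% Wilson intervals on these shares, in PFA replicate 2, ran from 0.263% to 0.276%. Such intervals cover counting error only, as PCR copies of a molecule cannot be recognised here. In bulk libraries, fewer cells with a transcript and less of it per cell cannot be told apart.

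**Figure D1:**
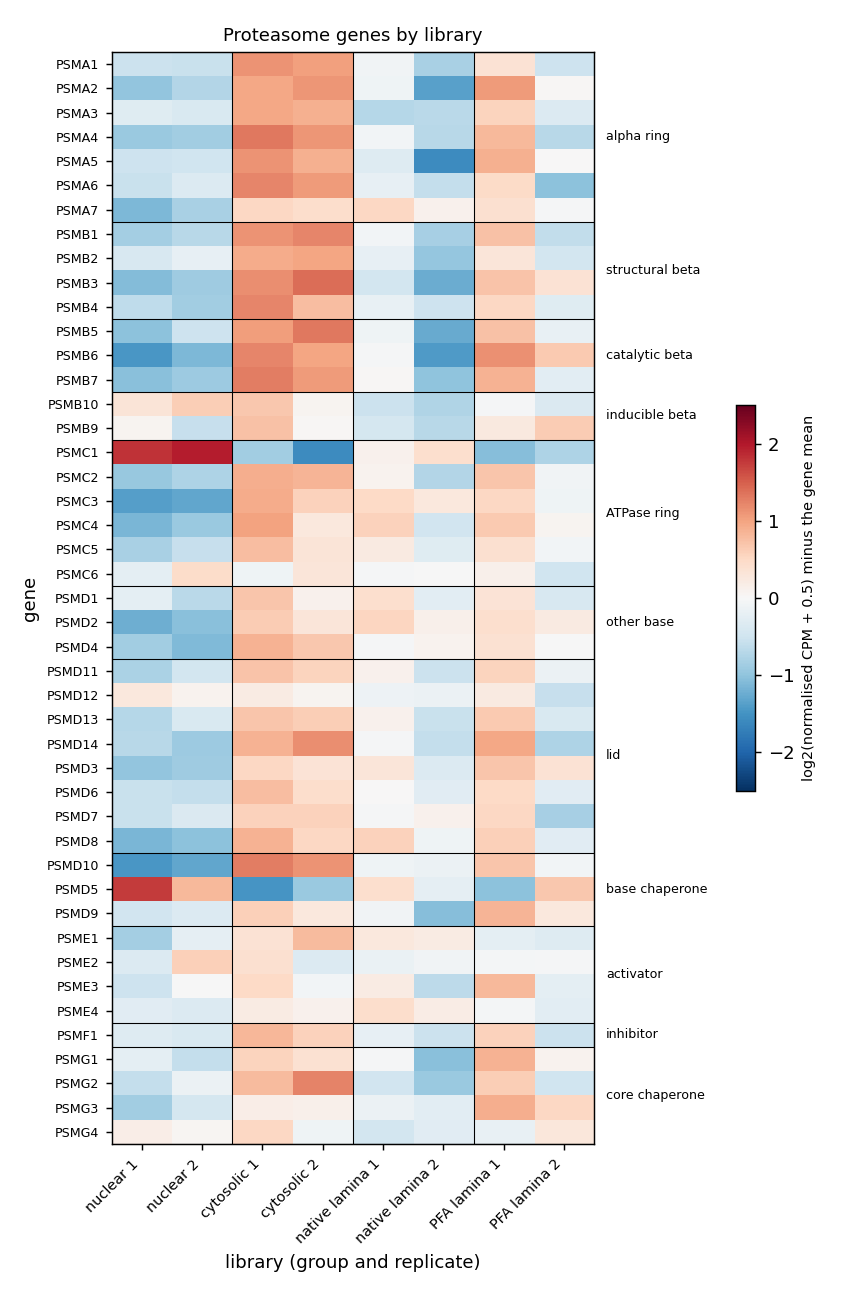
Each row is 1 of the 45 proteasome genes tested and each column 1 of the 8 libraries; colour gives log2(normalised CPM + 0.5) minus the gene's mean over the libraries, with rows grouped by the role of the subunit. Most rows are blue in the nuclear and red in the cytosolic libraries, and PSMC1 and PSMD5 show the reverse. The core rows at the top are mostly blue in native lamina replicate 2 and mostly paler in native lamina replicate 1.

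The first comparison asked how proteasome transcripts divide between nucleus and cytosol. Nuclear libraries held less than cytosolic ones of 32 of the 45 genes tested and more of 2, at a Benjamini-Hochberg adjusted p under 0.05 in the quasi-likelihood test of edgeR. Over all 16504 genes, 21.2% were lower and 26.1% higher. The median log2 fold change, nuclear over cytosolic, was -1.28 for the proteasome genes and 0.13 for all genes. The libraries of the 2 fractions did not overlap for 38 of the 45 genes, 36 of them lower in the nucleus, beside 35.4% of all genes lower and 42.5% higher without overlap. Leaving out nuclear replicate 1 gave 20 lower and 1 higher, while lower calls over all genes went from 3497 to 1648, and leaving out cytosolic replicate 1 gave 26 and 1. In these 2 fits the group left with 1 library took its spread from the other groups, and fewer genes of any kind passed. Without a PFA replicate, calls at the PFA lamina could also rise, as given below. A call that is missing without 1 library is in most cases given with its fold change.

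The catalytic subunits of the core were among the most cytosolic. PSMB6, the subunit with caspase-like activity (chromosome 17, 4699439 to 4701798 on hg19), had 13.7 and 17.4 in the nuclear, 90.1 and 76.5 in the cytosolic, 37.5 and 14.1 in the native lamina and 85.4 and 61.1 in the PFA lamina libraries, in normalised CPM as for all values of this kind below. Its log2 fold change between the fractions was -2.43 (adjusted p 0.00102 by edgeR, SE 0.41). PSMB7, which carries the trypsin-like activity (chromosome 9, 127115744 to 127177752), had 27.5 and 30.4 in the nuclear, 140.3 and 122 in the cytosolic, 58.7 and 28.6 in the native lamina and 105 and 48.2 in the PFA lamina libraries. Every cytosolic library lay above every nuclear one for both genes, and the change of PSMB7 was -2.18 (adjusted p 0.0015 by edgeR, SE 0.40). PSMB7 shares 38.3% of its exonic bases with LOC100129034 on the other strand, and since counting ignored strand the reads of the 2 cannot be told apart. PSMB5, the chymotrypsin-like subunit (chromosome 14, 23495060 to 23504429), had 26.8 and 37.97 in the nuclear, 114 and 138 in the cytosolic, 50.7 and 22.5 in the native lamina and 91.7 and 48.2 in the PFA lamina libraries, and its change was -1.96 (adjusted p 0.00248 by edgeR, SE 0.41).

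The structural subunits of the core followed the catalytic ones. All 4 structural beta genes and all 7 constitutive alpha genes were lower in the nucleus, with log2 fold changes from -2.30 in PSMB3 to -1.26 in PSMB2. PSMB3, a structural beta subunit (chromosome 17, 36908966 to 36920484), had 21.01 and 24.1 in the nuclear, 102 and 119.9 in the cytosolic, 32.6 and 18.9 in the native lamina and 74.5 and 58.1 in the PFA lamina libraries. Both nuclear values lay below both cytosolic ones, a change of -2.30 (adjusted p 6.24e-04 by edgeR, SE 0.32). PSMA5, an alpha ring subunit (chromosome 1, 109941653 to 109969108), had 24.3 and 24.4 in the nuclear, 76.9 and 65.1 in the cytosolic, 27.8 and 11.3 in the native lamina and 64.9 and 35.3 in the PFA lamina libraries. Its change of -1.55 (adjusted p 0.00733 by edgeR, SE 0.40) was not called without nuclear replicate 1 (-1.55, adjusted p 0.0555). PSMA4, an alpha ring subunit with the promoter match printed above, had 48.4 and 50.9 in the nuclear, 231 and 199.8 in the cytosolic, 88.98 and 57.3 in the native lamina and 163 and 57.4 in the PFA lamina libraries, and its change was -2.12 (adjusted p 0.00194 by edgeR, SE 0.41).

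The inducible catalytic subunits replace the constitutive ones in the immunoproteasome after interferon exposure. PSMB8 and PSMB9 were scarce in these cells, and PSMB10 was not. PSMB10 had 11.5 and 14.1 in the nuclear, 14.7 and 9.52 in the cytosolic, 6.13 and 5.16 in the native lamina and 8.87 and 6.99 in the PFA lamina libraries, so that the nuclear and cytosolic values overlapped. Its change between the fractions was 0.07 (adjusted p 0.897 by edgeR, SE 0.40). PSMB9 had 1.09 and 0.515 in the nuclear, 2.01 and 1.06 in the cytosolic, 0.624 and 0.442 in the native lamina and 1.29 and 1.84 in the PFA lamina libraries, on 3 to 15 counts, at or a little above the floor, and gave no call. PSMB8 had 1 to 6 counts in any library. PSMB8 and PSMB9 are annotated on 8 hg19 sequences, chromosome 6 and its alternate haplotypes. Their low counts are therefore uncertain, because the counting command has no option to count reads that map to several places. PSMB11, the thymus form, had at most 4 counts.

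Among the regulatory particle genes, 14 of 20 were lower in the nucleus and 2 higher, with a median log2 fold change of -1.27, against 14 of 16 lower and a median of -1.70 for the core. In the ATPase ring, PSMC3 (chromosome 11, 47440320 to 47448024) had 26.8 and 28.5 in the nuclear, 135 and 106 in the cytosolic, 99.7 and 84.7 in the native lamina and 101 and 65.5 in the PFA lamina libraries, and its change was -2.12 (adjusted p 6.83e-04 by edgeR, SE 0.30). PSMC6 did not differ between the fractions beyond their spread (0.04, edgeR adjusted p 0.930) and has 3 pseudogenes named after it in RefSeq.

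The scaffold and receptor subunits of the base differed in size of change. PSMD2, a scaffold that receives ubiquitin shuttles (chromosome 3, 184016886 to 184026842), had 87.3 and 99.3 in the nuclear, 317 and 252 in the cytosolic, 296 and 224 in the native lamina and 274 and 239 in the PFA lamina libraries. The nuclear values were the lowest pair, and the change was -1.61 (adjusted p 0.00145 by edgeR, SE 0.29). PSMD4, a ubiquitin receptor (chromosome 1, 151227176 to 151239954), had 30.7 and 26.1 in the nuclear, 103 and 91.1 in the cytosolic, 55.8 and 60.4 in the native lamina and 73.5 and 55.9 in the PFA lamina libraries, with a change of -1.77 (adjusted p 8.04e-04 by edgeR, SE 0.28). PSMD1, the other large scaffold (chromosome 2, 231921578 to 232037540), had 79.2 and 58.4 in the nuclear, 152 and 100.4 in the cytosolic, 126 and 77.9 in the native lamina and 119 and 70.6 in the PFA lamina libraries. Both nuclear values of PSMD1 lay below both cytosolic ones, but the change of -0.88 (adjusted p 0.0543 by edgeR, SE 0.35) was not a call.

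Of the 8 lid genes, 7 were lower in the nucleus. PSMD14, the deubiquitinase of the lid (chromosome 2, 162164786 to 162268228), had 18.8 and 16.3 in the nuclear, 57.4 and 69.8 in the cytosolic, 30.2 and 20.3 in the native lamina and 60.8 and 18.03 in the PFA lamina libraries, a change of -1.85 (adjusted p 0.00507 by edgeR, SE 0.44). PSMD8 (chromosome 19, 38865190 to 38874464) had 32.99 and 35.7 in the nuclear, 135 and 106 in the cytosolic, 110.0 and 68.8 in the native lamina and 112 and 60.7 in the PFA lamina libraries, a change of -1.81 (adjusted p 0.00171 by edgeR, SE 0.35). PSMD3 had a change of -1.39 (adjusted p 0.00297 by edgeR, SE 0.30), from 159 ± 12.98 (SD, n = 2) in the cytosol to 60.8 ± 2.74 in the nucleus. PSMD12 was the exception: it had 89.02 and 78.9 in the nuclear, 84.9 and 78.03 in the cytosolic, 67.8 and 66.5 in the native lamina and 86.5 and 49.7 in the PFA lamina libraries. Its fraction values overlapped, and the difference was 0.04 (adjusted p 0.916 by edgeR, SE 0.29). PSMA4, PSMC6, PSMD3 and PSMD12 lie outside the rule for named genes and were chosen after their values were seen.

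The 3 assembly chaperones of the base split. PSMD10 (gankyrin, chromosome X, 107327435 to 107334874) had 13.9 and 15.5 in the nuclear, 95.5 and 85.4 in the cytosolic, 36.2 and 35.1 in the native lamina and 63.01 and 37.2 in the PFA lamina libraries, the largest drop of the 45 genes, -2.63 (adjusted p 5.04e-04 by edgeR, SE 0.32). It has 3 pseudogenes named after it. PSMD9 (chromosome 12, 122326637 to 122355771) had 18.7 and 20.6 in the nuclear, 39.7 and 31.5 in the cytosolic, 24.6 and 12.4 in the native lamina and 48.04 and 31.6 in the PFA lamina libraries. Its nuclear values lay below its cytosolic ones without a call (-0.86, edgeR adjusted p 0.0615). PSMD5 (chromosome 9, 123578332 to 123605299) went the other way, with 6.69 and 3.26 in the nuclear, 0.267 and 0.634 in the cytosolic, 2.39 and 1.33 in the native lamina and 0.554 and 2.94 in the PFA lamina libraries.

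PSMC1, an ATPase of the base (chromosome 14, 90722894 to 90738969), and PSMD5 were the 2 genes with more RNA in the nuclear fraction. PSMC1 had 11.2 and 12.7 in the nuclear, 1.34 and 0.634 in the cytosolic, 3.12 and 3.98 in the native lamina and 1.11 and 1.47 in the PFA lamina libraries. For both genes the nuclear libraries lay above the cytosolic ones. Over the group, PSMC1 had 146 nuclear and 13 cytosolic counts, a ratio of normalised counts of 11.2 (95% counting interval 6.33 to 21.5). PSMD5 had 62 and 5 counts, a ratio of 12.3 (5.01 to 39.3). The fitted log2 fold changes were 3.51 (adjusted p 0.00103 by edgeR, SE 0.59) for PSMC1 and 3.502 (adjusted p 0.00899 by edgeR, SE 0.94) for PSMD5. PSMC1 gave 4.17 without cytosolic replicate 1. PSMD5 gave 4.10 without cytosolic replicate 2, and it was not called without cytosolic replicate 1 (2.92, edgeR adjusted p 0.0781) or nuclear replicate 1 (2.88, adjusted p 0.0970). RefSeq names 13 pseudogenes after PSMC1, the most among the 48 genes, and none after PSMD5. The part of such copies in the PSMC1 counts was not tested.

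**Figure D2:**
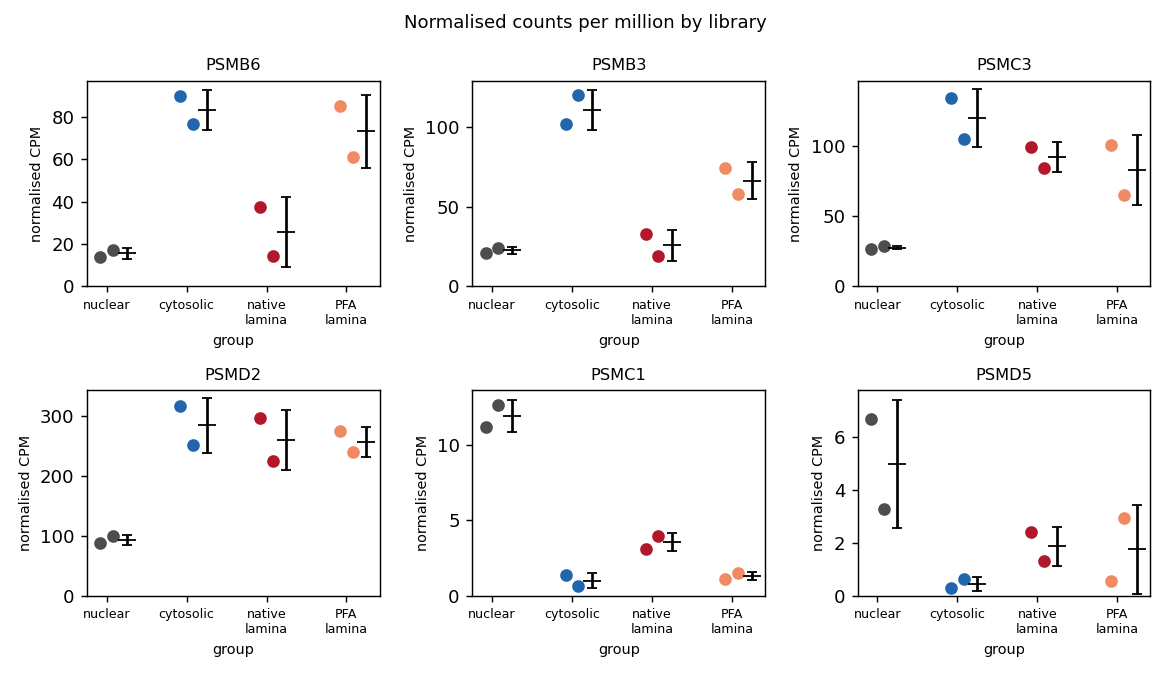
Points give normalised CPM in each library of 6 genes, and the bar beside them the mean ± SD of the 2 libraries; each panel has its own axis from 0. PSMB6 and PSMB3 sit low in the nuclear and native lamina libraries, PSMC3 and PSMD2 are lowest in the nuclear libraries, and PSMC1 and PSMD5 peak in the nuclear libraries.

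The activators and the inhibitor attach to the core in place of the regulatory particle. PSME1 and PSMF1 were lower in the nucleus, and the other 3 were not called. PSME1, an interferon-inducible activator subunit (chromosome 14, 24605367 to 24608176), had 14.6 and 22.9 in the nuclear, 34.5 and 46.5 in the cytosolic, 32.3 and 30.8 in the native lamina and 22.5 and 21.3 in the PFA lamina libraries. Its change was -1.11 (adjusted p 0.0112 by edgeR, SE 0.31) and was not called without cytosolic replicate 2 or nuclear replicate 1 (-0.90 to -0.83, adjusted p 0.0876 to 0.129). PSMF1, the inhibitor (chromosome 20, 1093872 to 1152890), had 68.6 and 66.3 in the nuclear, 155 and 129 in the cytosolic, 74.7 and 59.1 in the native lamina and 129.5 and 59.2 in the PFA lamina libraries. Its change was -1.07 (adjusted p 0.0212 by edgeR, SE 0.34), and it was not called without cytosolic replicate 1, cytosolic replicate 2, nuclear replicate 1 or nuclear replicate 2 (-1.22 to -0.95, adjusted p 0.0502 to 0.107) and with upper-quartile scaling (-0.80, edgeR adjusted p 0.0567).

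Among the uncalled activators, PSME2, the partner of PSME1 with 6 pseudogenes named after it, had 7.003 and 13.7 in the nuclear, 12.03 and 6.98 in the cytosolic, 7.90 and 8.40 in the native lamina and 8.68 and 8.83 in the PFA lamina libraries. PSME3, the activator found mainly in the nucleus as a protein (chromosome 17, 40985159 to 40995777), had 87.2 and 124 in the nuclear, 177 and 119 in the cytosolic, 145 and 79.1 in the native lamina and 221 and 106 in the PFA lamina libraries. PSME4, the large nuclear activator (chromosome 2, 54091204 to 54197977), had 152 and 145 in the nuclear, 213 and 201 in the cytosolic, 253 and 210.0 in the native lamina and 179.8 and 154 in the PFA lamina libraries. Both nuclear values of PSME4 lay below both cytosolic ones, with a difference between the fractions of -0.48 (adjusted p 0.158 by edgeR, SE 0.27). The values of PSME2 and PSME3 overlapped between the fractions, at 0.11 and -0.49.

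Of the 4 chaperones that assemble the core, PSMG2 and PSMG3 were lower in the nucleus. PSMG2 (chromosome 18, 12658738 to 12725739) had 8.25 and 11.5 in the nuclear, 22.3 and 30.9 in the cytosolic, 9.04 and 6.48 in the native lamina and 19.8 and 8.83 in the PFA lamina libraries, a change of -1.42 (adjusted p 0.0138 by edgeR, SE 0.42) that was not called without cytosolic replicate 2 or nuclear replicate 1 (-1.21 to -1.20, adjusted p 0.0963 to 0.113). PSMG3 (chromosome 7, 1606970 to 1609668) had 17.7 and 24.1 in the nuclear, 37.03 and 35.7 in the cytosolic, 29.7 and 27.3 in the native lamina and 61.9 and 47.5 in the PFA lamina libraries, a change of -0.80 (adjusted p 0.0361 by edgeR, SE 0.29). It was not called without cytosolic replicate 1, cytosolic replicate 2, nuclear replicate 1 or nuclear replicate 2 (-1.05 to -0.60, adjusted p 0.0548 to 0.248). Nor was it called with at least 10 counts required in every library (-0.59, edgeR adjusted p 0.101) and with upper-quartile scaling (-0.54, adjusted p 0.117). PSMG1 (chromosome 21, 40547372 to 40555440) had 24.9 and 19.6 in the nuclear, 43.99 and 38.9 in the cytosolic, 29.1 and 14.1 in the native lamina and 54.9 and 31.6 in the PFA lamina libraries, and PSMG4 (chromosome 6, 3259162 to 3268300) had 9.49 and 8.76 in the nuclear, 12.3 and 7.82 in the cytosolic, 6.03 and 6.78 in the native lamina and 7.39 and 10.3 in the PFA lamina libraries. Neither was called, at -0.90 (edgeR adjusted p 0.0615) and -0.15 (adjusted p 0.783).

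**Figure D3:**
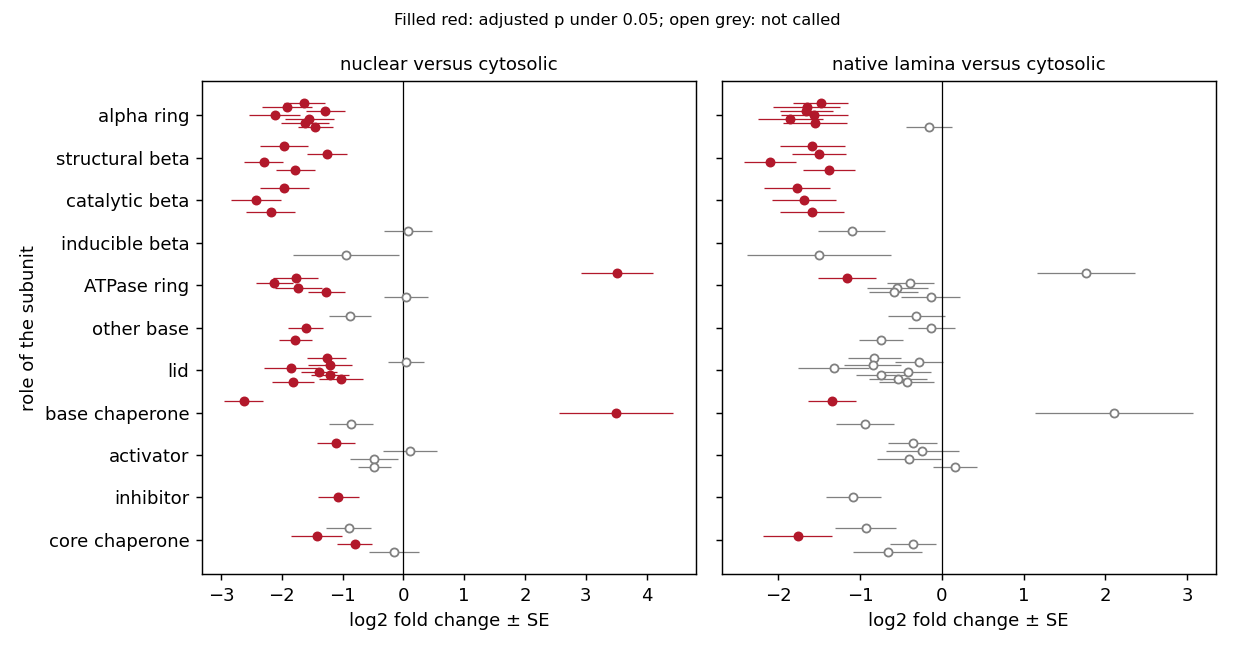
Log2 fold change ± SE of each of the 45 genes, grouped by role, for the nuclear against the cytosolic fraction (left) and the native lamina against the cytosolic fraction (right); filled red points passed an adjusted p under 0.05. On the left nearly all core and regulatory genes lie below 0, while on the right 13 core genes but only PSMC2 and PSMD10 among the regulatory genes are filled.

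The native lamina was compared with the cytosolic fraction next, and most of the adjusted calls were core genes. Of the 45 genes, 16 were lower at the native lamina by edgeR, against 6.77% of all genes lower and 6.99% higher. None was called higher by edgeR, with 2 at an unadjusted p under 0.05 and none by DESeq2, which called 18 lower. At an unadjusted p under 0.05, 25 were lower, 14 of them core and 8 regulatory, beside 14.5% of all genes. Both native libraries lay below both cytosolic ones in 34 genes, 15 of 16 core and 13 of 20 regulatory, beside 28.4% of all genes. The 16 were 13 of 16 core genes, 2 of 20 regulatory genes (PSMC2 and PSMD10) and PSMG2. The median log2 fold change was -1.57 in the core, -0.54 in the regulatory genes and 0.10 in all genes. The count depended on single libraries, with 1 lower call without cytosolic replicate 1, cytosolic replicate 2 or native replicate 2, and 25 lower with 1 higher without either PFA replicate, which is in neither group compared. Lower calls over all genes moved in the same fits, from 1117 to 196, 84 and 108, and to 2077 and 1980 without PFA replicate 1 and 2. The core median lay below the regulatory median in each fit without 1 library. The difference between the 2 sets was itself not tested.

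All 16 core genes had a fold change below 0 at the native lamina, 13 of them called. PSMB3 had the largest change, -2.10 (adjusted p 0.00503 by edgeR, SE 0.32), from 111 ± 12.6 in the cytosol to 25.7 ± 9.74 at the native lamina (SD, n = 2). PSMA5 changed by -1.85 (adjusted p 0.0129 by edgeR, SE 0.40) and PSMB5 by -1.77 (adjusted p 0.0153 by edgeR, SE 0.40). The other catalytic genes PSMB6 and PSMB7 had -1.68 (adjusted p 0.0167 by edgeR, SE 0.39) and -1.58 (adjusted p 0.021 by edgeR, SE 0.39). Native replicate 2 was the lower of the pair in each of these 5 genes, and without native replicate 1 the values became -2.65 in PSMA5, -2.48 in PSMB5, -2.56 in PSMB6 and -2.20 in PSMB7. PSMA5, PSMB5, PSMB6 and PSMB7 were not called without cytosolic replicate 1, cytosolic replicate 2 or native replicate 2, where fold changes ran from -1.97 to -1.16 and adjusted p from 0.0642 to 0.158.

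The 3 core genes without a call were PSMA7, PSMB9 and PSMB10. PSMA7, an alpha ring subunit (chromosome 20, 60711783 to 60718514) named here after its values were seen, had 34.7 and 42.8 in the nuclear, 109 and 103 in the cytosolic, 109 and 81.3 in the native lamina and 99.97 and 74.7 in the PFA lamina libraries. Its native lamina and cytosolic values overlapped, and the difference was -0.15 (adjusted p 0.738 by edgeR, SE 0.28). PSMB9 and PSMB10 lay below their cytosolic values in both native libraries without a call, at -1.501 (edgeR adjusted p 0.259) and -1.10 (adjusted p 0.0827).

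Of the 20 regulatory genes, 18 were not called. PSMD2 differed by -0.13 (adjusted p 0.789 by edgeR, SE 0.29), which turned to 0.15 when scaled by total counts, and PSMC3 by -0.38 (adjusted p 0.380 by edgeR, SE 0.29). PSMD1 and PSMD8 had -0.31 and -0.43, without a call. The 2 called genes were PSMD10, at -1.34 (adjusted p 0.0139 by edgeR, SE 0.30), and PSMC2, at -1.16 (adjusted p 0.0443 by edgeR, SE 0.35). PSMC2 was not called without cytosolic replicate 1, cytosolic replicate 2 or native replicate 2. PSMD10 was not called without cytosolic replicate 1, cytosolic replicate 2, native replicate 1 or native replicate 2 (-1.43 to -1.27, adjusted p 0.0575 to 0.0919). PSMD14 was not called, at -1.32 (adjusted p 0.0566 by edgeR, SE 0.43). PSMC1 and PSMD5, the 2 nuclear genes, had more RNA at the native lamina than in the cytosol, at 1.76 (edgeR adjusted p 0.0654) and 2.11 (adjusted p 0.153), neither of them a call. PSMG2 fell by 1.76 on the log2 scale (edgeR adjusted p 0.0177), not called without cytosolic replicate 1, cytosolic replicate 2 or native replicate 2 (-1.99 to -1.52, adjusted p 0.0636 to 0.128).

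The balance of core against regulatory RNA can be read within a library, where no scaling between libraries enters. Core genes took 44.8% (95% Wilson interval 44.2 to 45.4) and 48.0% (47.3 to 48.8) of the core plus regulatory counts in the cytosolic libraries. They took 32.9% (32.3 to 33.5) and 29.0% (28.1 to 29.8) at the native lamina. In the nuclear libraries the share was 37.9% (36.8 to 39.0) and 38.9% (37.8 to 40.1), and at the PFA lamina 40.9% (40.2 to 41.7) and 36.3% (34.9 to 37.6). Both cytosolic libraries thus lay above, and both native lamina libraries below, all other libraries, while the nuclear values fell between the PFA ones. The differences in share were not tested, since an exact permutation test of 2 libraries against 2 cannot give a two-sided p below 0.333.

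**Figure D4:**
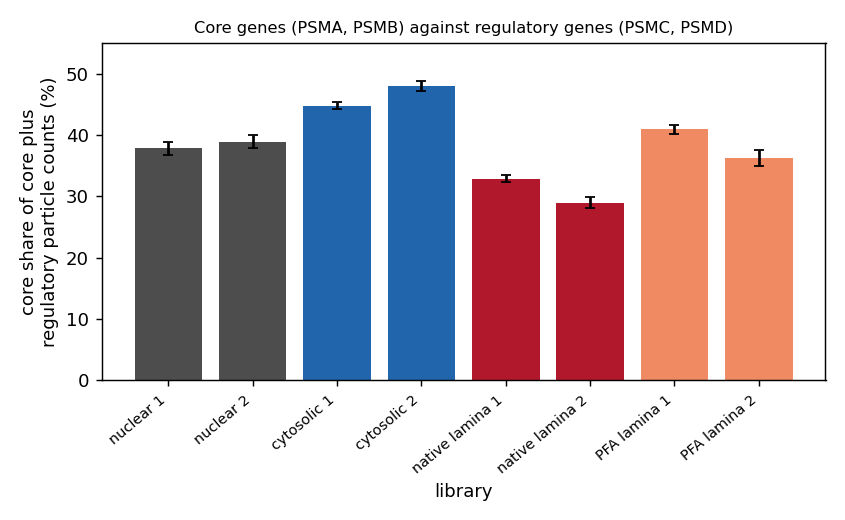
Bars give the percentage of core plus regulatory particle counts that fell on core genes in each library, from 0, with 95% Wilson intervals that cover counting error only. The cytosolic bars (44.8% and 48.0%) are the tallest and the native lamina bars (32.9% and 29.0%) the shortest.

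Core and regulatory genes also differ in length, so the comparison was repeated at matched length, a choice made after seeing the data. The median exonic length of the tested genes was 1040 bases in the core and 1841.5 in the regulatory set, with a median of 7.5 and 12 exon blocks. Across the 45 genes, the native-to-cytosolic change had a Spearman rho of 0.367 with exonic length and 0.501 with the number of exon blocks, a description over genes that share libraries. Among genes of 1300 to 2100 exonic bases, 4 of 4 core genes and 1 of 12 regulatory genes were lower at the native lamina, with medians of -1.60 and -0.56. The number of exon blocks was not matched, and the part of length or exon number in the gap between the sets was not tested. Without the specialised subunits and the base chaperones, the core median lay 1.05 below the regulatory one.

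**Figure D5:**
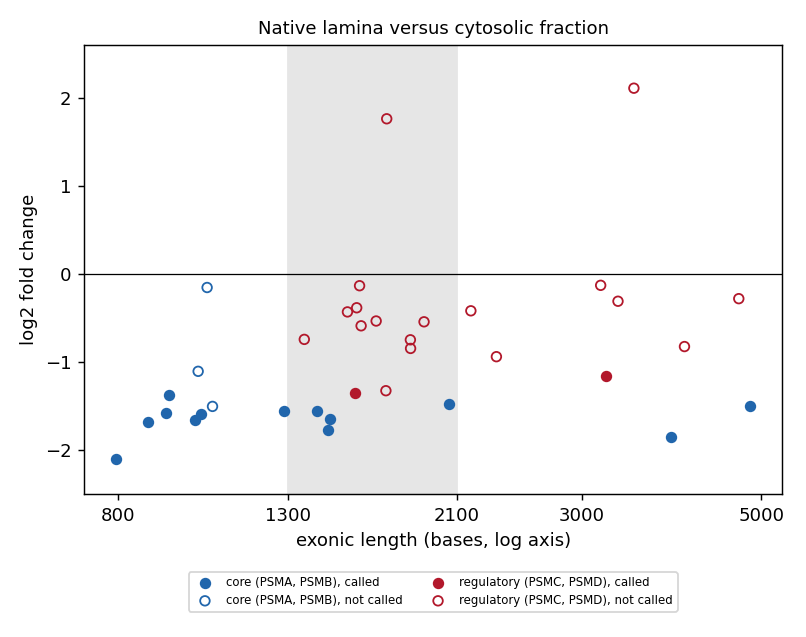
Each point is a core (blue) or regulatory (red) gene, placed by exonic length on a log axis and by log2 fold change of the native lamina against the cytosolic fraction; filled points passed an adjusted p under 0.05 and the grey band marks 1300 to 2100 bases. Within the band the 4 core genes are filled and lie near -1.6, while 11 of the 12 regulatory genes are open.

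Against the nuclear fraction, the native lamina held more of a few proteasome transcripts, 5 of them of the regulatory particle. The 4 cytosolic RNA markers (GAPDH, ACTB, EEF1A1, TUBA1B) moved the same way, with a median log2 fold change of 0.52 and 1 of 4 called higher, and the nuclear RNA markers had a median of -1.89 over 3 tested, none called. The cytosolic markers summed to 891 to 1499.7 normalised CPM in the nuclear, 5297 to 9112 in the cytosolic and 2199 to 2235 in the native lamina libraries. The part of cytosolic RNA in these differences was not tested. By edgeR, 6 of 45 genes were higher and none lower, beside 3.87% of all genes higher and 3.44% lower. At an unadjusted p under 0.05 the counts were 11 and 2, and DESeq2 called 8 and 0. The 6 were PSMA7 in the core and PSMC3, PSMD2, PSMD4, PSMD8 and PSMD10 in the regulatory set. Median log2 fold changes were 0.19 in the core, 0.55 in the regulatory genes and -0.07 in all genes. The count was 0 without nuclear replicate 1 or 2, 1 without native replicate 1, 2 without native replicate 2, 4 without either cytosolic replicate and 8 without either PFA replicate. Higher calls over all genes moved with it, from 639 to 1 and 12 without nuclear replicate 1 and 2, to 134 and 102 without native replicate 1 and 2, to 386 without either cytosolic replicate and to 1666 and 1599 without PFA replicate 1 and 2. The median of all 45 genes was 0.38, but -0.05 without native replicate 1.

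The called regulatory genes covered the ATPase ring, the scaffold, a receptor, the lid and a chaperone. PSMC3 had the largest change, 1.74 (adjusted p 0.0115 by edgeR, SE 0.30), and was not called without nuclear replicate 1 or nuclear replicate 2 (1.70 to 1.80, adjusted p 0.0956 to 0.159). PSMD2 had 1.48 (adjusted p 0.0163 by edgeR, SE 0.29) and was not called without native replicate 1, nuclear replicate 1 or nuclear replicate 2 (1.28 to 1.59, adjusted p 0.0965 to 0.200). PSMD8 had 1.38 (adjusted p 0.0342 by edgeR, SE 0.34), not called without cytosolic replicate 1, cytosolic replicate 2, native replicate 1, native replicate 2, nuclear replicate 1 or nuclear replicate 2 (1.02 to 1.69, adjusted p 0.0511 to 0.236). In PSMC3, PSMD2 and PSMD8, as in PSMD10 and PSMD4, both native libraries lay above both nuclear ones. PSMD10 had 1.28 (adjusted p 0.0307 by edgeR, SE 0.31) and was not called without native replicate 1, native replicate 2, nuclear replicate 1 or nuclear replicate 2 (1.21 to 1.38, adjusted p 0.110 to 0.232). PSMD4 had 1.03 (adjusted p 0.0414 by edgeR, SE 0.27) and was not called without cytosolic replicate 1, cytosolic replicate 2, native replicate 1, native replicate 2, nuclear replicate 1 or nuclear replicate 2 (0.94 to 1.16, adjusted p 0.0601 to 0.224), and with upper-quartile scaling (0.88, adjusted p 0.0607). PSMA7 had 1.30 (adjusted p 0.024 by edgeR, SE 0.29), and it too was not called without native replicate 1, native replicate 2, nuclear replicate 1 or nuclear replicate 2. PSMC1 again ran against the set, at -1.75 (adjusted p 0.0545 by edgeR, SE 0.51), without a call.

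The catalytic core genes gave no call between the native lamina and the nucleus. PSMB5, PSMB6 and PSMB7 had log2 fold changes of 0.19, 0.74 and 0.60, and in all 3 the native values overlapped the nuclear ones. Without native replicate 1 the values of PSMB5 and PSMB6 turned to -0.51 and -0.12. The activator PSME4 lay above the nuclear values in both native libraries, which overlapped its cytosolic values, with a difference of 0.64 (adjusted p 0.139 by edgeR, SE 0.27). PSMB10 lay below the nuclear values in both native libraries (-1.17, edgeR adjusted p 0.0839).

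The PFA lamina was higher than the nuclear fraction in 14 of 45 genes and lower in 1, beside 9.63% of all genes higher and 7.81% lower by edgeR. The calls were 5 of 16 core genes, 8 of 20 regulatory genes and PSMG3 on the higher side, and PSMC1 on the lower. DESeq2 called 17 higher and 1 lower. Medians were 1.03 in the core, 0.96 in the regulatory genes and -0.04 in all genes. This comparison shares the nuclear libraries with that of the native lamina. The cytosolic RNA markers again moved the same way, with a median of 1.04, 2 of 4 called higher and a sum of 1876 to 2906 normalised CPM, and 3 of 3 nuclear RNA markers tested were lower, with a median of -2.90. The higher count was 0 without nuclear replicate 1, 3 without nuclear replicate 2, 6 without PFA replicate 1 and 32 without PFA replicate 2, while higher calls over all genes went from 1589 to 1, 314, 472 and 2737. The lower call was absent without either nuclear replicate, and without PFA replicate 2 there were 2. Both PFA libraries lay above both nuclear ones in 27 genes, beside 30.0% of all genes, and below them in PSMB10, PSMC1 and PSMD5, beside 32.2%. The part of either marker set, or of the gap between the PFA libraries, in these counts was not tested. The median of the 45 genes was 0.89, and 0.30 without PFA replicate 1.

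PSMB6 showed the largest change at the PFA lamina, 2.24 (adjusted p 0.00754 by edgeR, SE 0.41), and was not called without nuclear replicate 1 (2.08, adjusted p 0.109). PSMD10 had 1.78 (adjusted p 0.00745 by edgeR, SE 0.31), not called without nuclear replicate 1 (1.70, adjusted p 0.1). PSMC3 had 1.60 (adjusted p 0.00835 by edgeR, SE 0.30), not called without nuclear replicate 1 or nuclear replicate 2 (1.55 to 1.65, adjusted p 0.0534 to 0.111). All PFA values of these 3 genes lay above all nuclear ones. PSMB7 had 1.42 (adjusted p 0.0301 by edgeR, SE 0.40), but 0.75 without PFA replicate 1. It was not called without PFA replicate 1, nuclear replicate 1 or nuclear replicate 2 (0.75 to 1.4996, adjusted p 0.114 to 0.267), and in a fit of only the 4 libraries compared (adjusted p 0.0678). PSMB3 had 1.56 (adjusted p 0.0102 by edgeR, SE 0.32), not called without nuclear replicate 1 or nuclear replicate 2 (1.46 to 1.67, adjusted p 0.0568 to 0.124).

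Base and lid genes were among the higher calls. PSMD2 had 1.46 (adjusted p 0.00985 by edgeR, SE 0.29), not called without nuclear replicate 1 or nuclear replicate 2 (1.37 to 1.57, adjusted p 0.0565 to 0.124). PSMD4 had 1.19 (adjusted p 0.0163 by edgeR, SE 0.28), not called without PFA replicate 1, nuclear replicate 1 or nuclear replicate 2 (0.99 to 1.31, adjusted p 0.0825 to 0.123). PSMD8 had 1.34 (adjusted p 0.023 by edgeR, SE 0.35), not called without PFA replicate 1, nuclear replicate 1 or nuclear replicate 2 (0.83 to 1.41, adjusted p 0.100 to 0.176). These 3 had both PFA libraries above both nuclear ones. The core chaperone PSMG3 had 1.39 (adjusted p 0.0111 by edgeR, SE 0.29), not called without PFA replicate 1 or nuclear replicate 1 (1.19 to 1.20, adjusted p 0.0535 to 0.139), and its PFA values were its highest in any group. In fits of only the 4 libraries compared, PSMD4, PSMD8 and PSMG3 had adjusted p of 0.0598, 0.0624 and 0.0520.

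PSMC1 fell at the PFA lamina to a level near that of the cytosol. It had 10 counts in the 2 PFA libraries against 146 in the nuclear ones, a ratio of normalised counts of 0.103 (95% counting interval 0.0485 to 0.195). The fitted change was -3.23 (adjusted p 0.00845 by edgeR, SE 0.61), not called without nuclear replicate 1 or nuclear replicate 2 (-3.32 to -3.12, adjusted p 0.0547 to 0.0957). PSMD5 differed between the 2 PFA libraries, at 3 and 8 counts, and gave -1.68 (edgeR adjusted p 0.176).

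Against the cytosol, no proteasome gene was called at the PFA lamina by edgeR, beside 0.145% of all genes lower and 0.527% higher. At an unadjusted p under 0.05, 11 of 45 were lower, 8 of them core and 2 regulatory, beside 8.61% of all genes. DESeq2 called 2 lower. Both PFA libraries lay below both cytosolic ones in 21 genes, 13 of 16 core and 5 of 20 regulatory, beside 23.0% of all genes. The median was -0.75 in the core and -0.40 in the regulatory genes, with 0.08 in all genes. Without PFA replicate 1, 14 genes were called lower, while lower calls over all genes went from 24 to 1166. PSMB6, PSMD2 and PSMG3 had -0.18, -0.15 and 0.59.

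Between the 2 lamina preparations edgeR called none of the 45 genes, as it called 0.0% of all genes in either direction. At an unadjusted p under 0.05, the PFA lamina was higher in 9 genes, beside 5.44% of all genes, and lower in 1, beside 5.6%. DESeq2 called 2 higher. Both PFA libraries lay above both native ones in 14 genes, beside 19.9% of all genes. The median log2 fold change, PFA over native, was 0.73 in the core and 0.18 in the regulatory genes, against 0.06 in all genes. The 4 largest positive values were those of core genes. PSMB9, near the floor, had 1.46 and PSMB6 1.498 (adjusted p 0.286 by edgeR, SE 0.39). They were followed by PSMB3 at 1.36 (adjusted p 0.285 by edgeR, SE 0.31) and PSMA5 at 1.36 (adjusted p 0.313 by edgeR, SE 0.40), and in all 4 both PFA libraries lay above both native ones. Without PFA replicate 2 there were 9 higher calls, with 309 over all genes, and without PFA replicate 1 the median of the 45 genes turned to -0.07.

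Levels of different genes were compared per kilobase of exon, as normalised CPM per kb. In the cytosol the core genes led. PSMB1 had 168 ± 6.86 (SD, n = 2), PSMB4 153 ± 33.98, PSMA4 153 ± 15.6 and PSMB3 139 ± 15.9 normalised CPM per kb. Neighbours in this order overlap within their SD. The highest regulatory gene was PSMD2, at 89.9 ± 14.6 per kb, beside PSMB6 at 95.6 ± 11.002 and PSMB5 at 86.4 ± 11.7. PSMA5 was the lowest of the constitutive core genes, at 18.4 ± 2.15 per kb, and has the longest exonic length of them after PSMB2.

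At the native lamina the order per kb changed. PSMA7 led the core in both replicates, at 92.1 ± 18.8 normalised CPM per kb, and PSMD2 had 82.2 ± 15.98. PSMB1 stood at 55.96 ± 20.7 and PSMB3 at 32.3 ± 12.2 per kb. The 14 constitutive core genes differed by 8.91- and 10.2-fold from lowest to highest in the cytosolic libraries, by 7.71- and 7.21-fold in the nuclear ones by 7.38- and 7.99-fold at the PFA lamina and by 14.7- and 26.8-fold at the native lamina. PSMA5 was the lowest in every library, and without PSMA5 and PSMB2 the native values were 6.14- and 7.25-fold, beside 4.18- and 7.07-fold at the PFA lamina, 3.55- and 3.87-fold in the cytosolic and 3.43- and 2.74-fold in the nuclear libraries. In the regulatory particle, PSMC1 was the lowest of 17 subunits in each cytosolic and lamina library, and PSMC2 in the nuclear ones. RefSeq names 13 pseudogenes after PSMC1, and the counting command has no option to count reads that map to several places. The part of this in the low level of PSMC1 was not tested.

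The pathway around the proteasome was described from lists of genes outside the symbol rule. Of 10 genes for proteins that bind, complete or build the particle, 5 were lower in the nucleus than in the cytosol, beside 21.2% of all genes. ADRM1, a ubiquitin receptor of the base, had -1.35 (adjusted p 0.00441 by edgeR, SE 0.31) between the fractions and -0.50 at the native lamina against the cytosol. SEM1, the smallest lid subunit, had -1.73 (adjusted p 0.00231 by edgeR, SE 0.35) and -1.49 (adjusted p 0.0165 by edgeR, SE 0.34). POMP, the maturation factor of the core, had -1.78 (adjusted p 0.00377 by edgeR, SE 0.40) between the fractions. Its native lamina values of 15.9 and 7.66 normalised CPM against 71.9 and 75.3 in the cytosol gave -2.63 (adjusted p 0.0051 by edgeR, SE 0.42).

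Among 8 genes of ubiquitin shuttles and the p97 unfoldase, 6 were lower in the nucleus, beside 21.2% of all genes. Of 4 genes that regulate proteasome transcription, only NFE2L1 was called, higher in the nucleus by 0.82 (adjusted p 0.0491 by edgeR, SE 0.32). The median of the 4 was -0.52, and 26.1% of all genes were called higher. Of the 10 particle-binding genes 2, and of the 8 shuttle genes 1, were lower at the native lamina than in the cytosol, beside 6.77% of all genes. Against the nucleus, the native lamina had 3 shuttle genes called higher and the PFA lamina 4, beside 3.87% and 9.63% of all genes. Other complexes were set beside the proteasome genes. Between the fractions, 8 of 9 COP9 signalosome genes, 10 of 13 eIF3 genes and 8 of 8 chaperonin genes were lower in the nucleus, with medians of -1.57, -1.58 and -1.92, beside 21.2% of all genes lower. At the native lamina against the cytosol, 4, 6 and 4 of these genes were lower, beside 6.77% of all genes. The proteasome genes were not tested for a difference from these complexes.

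Lamina-associated domains were available from HCT116, a human colorectal carcinoma line, as 1 consensus list for each of G1, S and G2. None of the 48 proteasome genes touched a domain in any stage. Of the 16504 genes tested, 2.38% touched a domain in G1, 2.02% in S and 3.44% in G2. The lists come from another cell line than the RNA and have no replicates.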

How the data were processed

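Gene counts of 8 HEK293FT libraries were used as deposited. Per the file headers, the authors made the counts with featureCounts 1.5.2 on hg19 RefFlat genes, ignoring strand and counting a read for each gene it overlapped, with no option to count reads that map to several places. The submitters' processing notes also name TopHat2 2.1.1, Bowtie2 2.3.2 and bedtools 2.26.0. The header of cytosolic replicate 1 carries the output name of nuclear replicate 1; the sample was taken from the GEO record. The deposited HCT116 domain lists were used as intervals only. K562 samples, whose labels disagree, were not analysed here.

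Counts were fitted with edgeR 4.0.16 (R 4.3.3; TMM scaling, filterByExpr by group, quasi-likelihood test) over all 8 libraries and 16504 genes, with Benjamini-Hochberg adjustment and calls at an adjusted p under 0.05. Normalised CPM are counts scaled to a common library total after TMM. SE is the log2 fold change divided by the root of F. Tested on simulated data for the nuclear against cytosolic comparison (15957 genes, 200 changed), 90% of genes changed by 2 on the log2 scale were called in the right direction and 0.0571% of unchanged genes were called. The changed genes left out the lowest levels and went equally up and down, with spreads taken from the fit itself. They were far fewer than the genes called between the fractions. The rates therefore do not cover changes in low genes or the other comparisons. Totals of 2321291 to 8557777 counts set the precision.

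Named genes were the catalytic and inducible core subunits, activators, inhibitor, assembly factors, PSMD1, PSMD2, PSMD4 and PSMD14, plus the 3 largest called changes per direction and comparison where the higher group had 50 counts or more in both libraries. Any other gene was chosen with its values in view. The members and lists were chosen with earlier results of these data known. Alternatives were other scalings, filters, DESeq2 1.42.0, a replicate block, fits of 4 libraries, member subsets and leaving out each library. Some genes of the marker and pathway lists are not reported here.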

Additional observations from a re-analysis of the deposited data

How the results depend on the processing

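No call of a named gene turned direction under the alternatives run. Some uncalled values did, as did 2 medians of the 45 genes: native lamina against nucleus, -0.05 without native replicate 1, and PFA against native lamina, -0.07 without PFA replicate 1. Leaving out 1 library gave 1 to 2 higher and 20 to 35 lower calls between the fractions, 0 to 8 higher and 0 to 2 lower for the native lamina against the nucleus, and 0 to 1 higher and 1 to 25 lower against the cytosol. For the PFA lamina it gave 0 to 32 higher and 0 to 2 lower against the nucleus, 0 to 14 lower against the cytosol, and 0 to 9 higher against the native lamina. A minimum of 10 counts in every library left 42 genes tested, and leaving out genes with 3 or more pseudogenes or several annotated sequences, a subset chosen after seeing the data, left 37. The first drops PSMC1 and PSMD5 and the second PSMC1, so higher calls between the fractions were 0 and 1, and lower calls for the PFA lamina against the nucleus 0, by construction. In fits of only the 4 libraries compared, the native lamina had 10 higher and 2 lower calls against the nucleus, and the PFA lamina 7 higher. With no filter there were 24 higher for the PFA lamina against the nucleus, 5 lower against the cytosol, 4 higher against the native lamina, and 1 lower for the native lamina against the nucleus, as with upper-quartile factors (1). DESeq2 called 2 lower for the PFA lamina against the cytosol and 2 higher against the native lamina. The cause of the shifts with DESeq2, no filter, upper-quartile factors and 4 libraries was not tested.

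With the replicate number as a block, calls were 2 higher and 35 lower between the fractions, 8 and 1 for the native lamina against the nucleus, 0 and 20 against the cytosol, and 18 and 1 for the PFA lamina against the nucleus. Replicate differences correlated across genes at 0.28 between the nuclear and cytosolic groups and at 0.32 between the 2 lamina groups. Between the other groups the values were -0.07 to 0.16. With 2 numbers only, whether same-numbered libraries are pairs was not tested, and the main fit did not take them as pairs. Other scalings moved the median of all genes by up to 0.29 on the log2 scale. Low counts limit PSMB8, PSMB9, PSMC1 and PSMD5 most.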
